A study of Mus musculus with 8 samples.

Results

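The 7 genes described here encode the MHC class II antigen presentation machinery: the class II chains H2-Aa, H2-Ab1 and H2-Eb1, the invariant chain Cd74, the peptide-exchange chaperone H2-DMa with H2-DMb1, and the class II transactivator Ciita. They were chosen by name from the pathway and not by their values, and all 7 were listed both among the 55413 genes of a bulk TPM table and among the 15083 genes of a droplet UMI table. The cells were group 2 innate lymphoid cells (ILC2s), tissue lymphocytes without rearranged antigen receptors that release type 2 cytokines when they meet the alarmin IL-33. All came from lungs of wild type C57BL/6 mice, with no age stated in the labels. For the bulk data, female mice received IL-33 through the nose on 3 consecutive days, with dopamine (3 libraries) or with the vehicle PBS (3 libraries), and each library held 2000 sorted ILC2s. For the droplet data, cells of male mice carried 8 antibody hashtags in 1 pool, loaded at 60000 cells per channel. The labels give 3 days of treatment for the pool as well. In the cell table IL-33 with dopamine was hashtag 6 (1252 cells), 7 (1197 cells) and 8 (1475 cells). IL-33 was hashtag 3 (1485 cells), 4 (1092 cells) and 5 (1516 cells), and PBS was hashtag 1 (311 cells) and 2 (748 cells). The labels name only IL-33 with PBS or with dopamine for the pool, so PBS in the cell table is taken as vehicle without IL-33. They do not say that a hashtag is 1 mouse, so p-values over hashtags measure the spread between hashtags, which may be technical. Bulk and droplet data differ in sex, in the part of the transcript read (full length against 3′ ends) and in unit.

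Class II molecules are pairs of an alpha and a beta chain that carry peptides of ingested proteins to the cell surface, where CD4 T cells read them. In the endoplasmic reticulum the invariant chain Cd74 occupies the groove of a new pair and guides it to endosomes. There H2-DM removes the last fragment of Cd74 and lets other peptides bind, and H2-DO, made of H2-Oa and H2-Ob, inhibits H2-DM. Ciita binds no DNA itself but is brought to the X and Y boxes of class II promoters by RFX, CREB and NF-Y, and its own expression is induced by interferon gamma in many cells. Dendritic cells, B cells and macrophages carry class II at high levels. ILC2s carry less, and mouse ILC2s have been described to present antigen to CD4 T cells through it. C57BL/6 mice make no E alpha chain, so the product of H2-Eb1 has no partner for a surface molecule in this strain.

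The Y box is the element through which NF-Y acts on these promoters, so the stretches just before the start sites are shown for the 3 members in which a match to one of the searched elements lay within 150 bases. Sequences come from the RefSeq promoter table for GRCm38.p6, where 4 of the 7 members had an entry (H2-Aa, H2-Eb1, H2-DMa and H2-DMb1), and each is written 5′ to 3′ in the direction of transcription and ends at the base before the start site. Capitals mark matches, on either strand, to CTGATTGG (a Y box), to ATTGG (the inverted CCAAT core within it, which every Y box match contains) or to the X-box pattern.
H2-Aa, chr17:34287824-34287973, minus strand: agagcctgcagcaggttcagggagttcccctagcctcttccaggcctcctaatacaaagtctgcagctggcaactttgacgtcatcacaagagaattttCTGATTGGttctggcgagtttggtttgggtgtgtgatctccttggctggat
H2-Eb1, chr17:34305717-34305866, plus strand: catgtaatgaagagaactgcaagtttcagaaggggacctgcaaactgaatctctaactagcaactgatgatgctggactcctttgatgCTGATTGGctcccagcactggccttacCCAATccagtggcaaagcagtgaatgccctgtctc
H2-DMb1, chr17:34153041-34153190, plus strand: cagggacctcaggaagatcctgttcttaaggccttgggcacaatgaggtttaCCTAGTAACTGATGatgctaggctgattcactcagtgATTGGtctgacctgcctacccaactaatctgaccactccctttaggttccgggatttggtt
H2-Aa held CTGATTGG from -51 to -44 and H2-Eb1 from -62 to -55, counted back from the start site. H2-Eb1 also held CCAAT, the same core on the other strand, from -35 to -31. H2-DMb1 held ATTGG from -61 to -57 and a match to the X-box pattern, CCTAGTAACTGATG, from -98 to -85. H2-Eb1 had no exact match to that pattern, but held actagcaactgatg before its Y box, which differs from the pattern only in its first letter. In windows of 300 bases, 4.10% of 32851 promoters held CTGATTGG, 37.4% held ATTGG and 1.16% held the X-box pattern. These matches are descriptions of the letters, not of bound factors. H2-DMa had 2 such windows, 1 without a match and 1 with ATTGG from -198 to -194.

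On the genome, H2-Aa (ENSMUSG00000036594.15), H2-Ab1, H2-Eb1, H2-DMa and H2-DMb1 lie together on chromosome 17 between 34119541 and 34316674 of GRCm38, Ciita lies on chromosome 16 (10480059 to 10528418) and Cd74 on chromosome 18 (60803848 to 60812652). In the GENCODE annotation, 360 of 3448 exonic bases of H2-DMa overlap Brd2 on the opposite strand, and 329 of 9535 of Ciita overlap Dexi on the opposite strand. Which strand was counted is not stated, so reads of these neighbours may be included. H2-DMb1 and H2-DMb2 are close copies, and reads may have been split between them.

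Before the members, the labelled cell type was checked. Gata3, the defining transcription factor of ILC2s, had a UMI in 89.7% of the 9076 droplet cells. Il1rl1, which encodes the receptor chain for IL-33, had one in 92.2%. In bulk, all 18 listed ILC2 markers passed the level filter. So did 10 of 10 ILC3, 10 of 12 T cell and 9 of 14 B cell markers, so passing it does not tell these cell types apart. The bulk libraries had 11502, 11529 and 11745 genes at 1 TPM or more with dopamine, against 11384, 9822 and 10525 with PBS, and their read depth is unknown because TPM keeps none. Of all 11222 genes tested in bulk, the median difference was 0.49 (log2) toward the dopamine libraries, so changes are also given relative to it. Hashtag totals ranged from 1397576 to 9268932 UMIs, and no cell barcode was shared between hashtags.

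In bulk ILC2s, dopamine given with IL-33 was set against PBS given with IL-33, and no class II gene changed by the limma test. The chains and Cd74 were abundant, at 171 to 749 TPM in every library. Cd74, H2-Eb1 and H2-DMb1 were higher in all 3 dopamine libraries than in any PBS library, by 0.63 to 0.79 (log2), which is 0.14 to 0.29 above the shift of all genes. H2-DMa lay below that shift in every setting tried (-0.79 to -0.43 relative to it). H2-Aa lay below it in the main fit, but ranged from -0.69 to 0.09, the highest with quantile normalization.

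**Figure D1:**
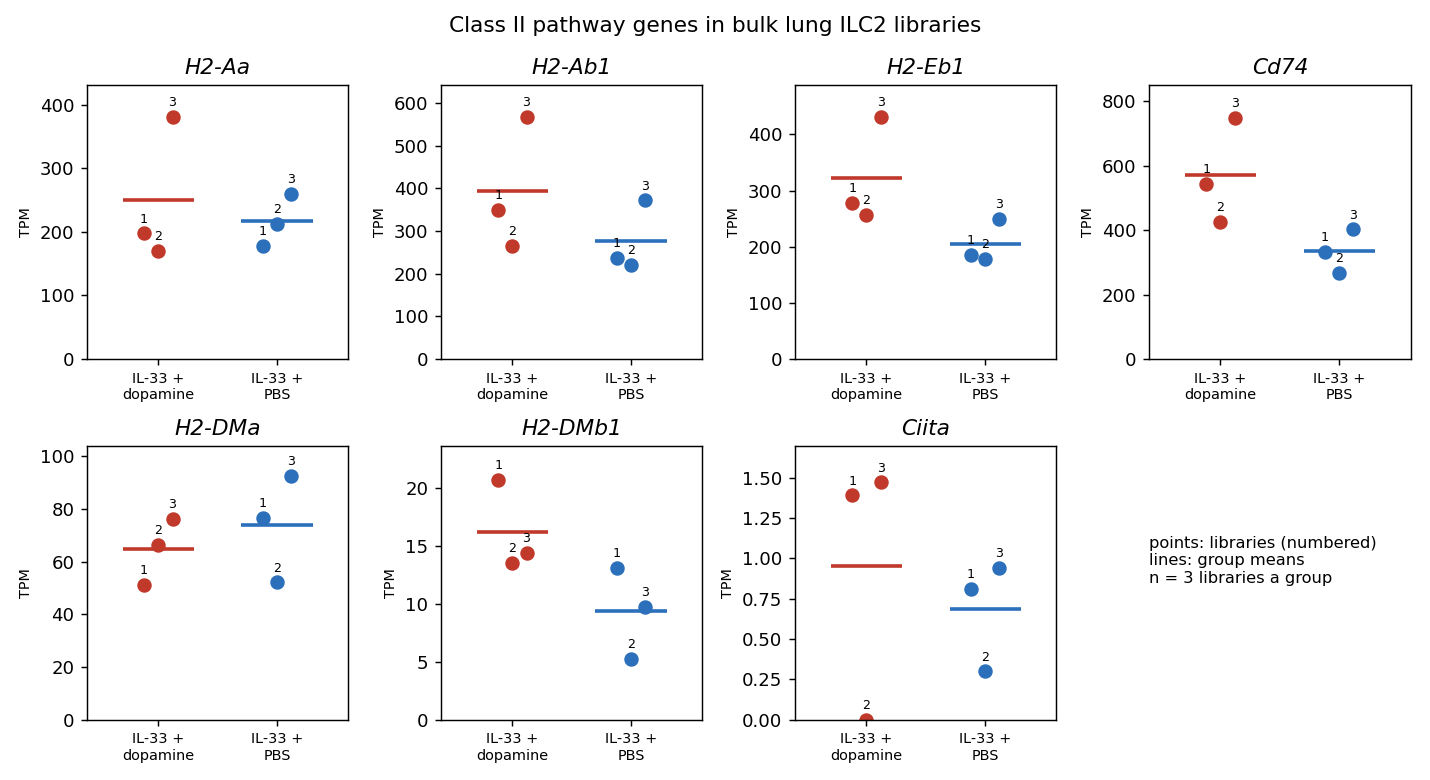
TPM (linear axis from 0) of the 7 class II pathway genes in the 3 IL-33 plus dopamine libraries (left, red) and the 3 IL-33 plus PBS libraries (right, blue), with numbered points for libraries and lines for group means. The dopamine libraries of Cd74 (425 to 749 TPM), H2-Eb1 and H2-DMb1 all lie above the PBS libraries, and the other 4 genes overlap.

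H2-Aa, the alpha chain of the I-A molecule, had 198, 171 and 382 TPM in dopamine libraries 1 to 3, against 178, 212 and 260 TPM in PBS libraries 1 to 3. The groups overlapped and dopamine library 3 was the highest of the 6. Its difference was 0.13 ± 0.31 (log2, SE; limma adjusted p = 0.807), -0.36 relative to all genes. The difference of H2-Aa turned to -0.41 with median-of-ratios scaling and was 0.11 with quantile normalization. H2-Ab1, the beta chain of I-A, had 349, 266 and 566 TPM with dopamine, against 236, 221 and 371 TPM with PBS. Here too the groups overlapped, through PBS library 3. The difference of H2-Ab1 was 0.48 ± 0.30 (log2, SE; limma adjusted p = 0.337), -0.02 relative to all genes. With median-of-ratios scaling the difference was -0.07, and with quantile normalization 0.48. H2-Eb1, the I-E beta chain that lacks its partner in this strain, had 278, 257 and 431 TPM with dopamine, against 185, 178 and 250 TPM with PBS. All 3 dopamine libraries were above all 3 PBS libraries. The difference of H2-Eb1 was 0.63 ± 0.25 (log2, SE; limma adjusted p = 0.174), 0.14 relative to all genes, with a range from -0.10 to 0.61 over the scalings, filters and left-out libraries tried. H2-Ea, the gene of the missing alpha chain, was listed at 0 in all 6 libraries.

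Cd74, the invariant chain, was the most abundant member per length in each library. It had 543, 425 and 749 TPM with dopamine, against 334, 266 and 402 TPM with PBS. The groups did not overlap. The difference of Cd74 was 0.76 ± 0.24 (log2, SE; limma adjusted p = 0.124), 0.26 relative to all genes, with a range from 0.08 to 0.75 over the settings and left-out libraries. Cd74 in relation to the mean of the 3 chains was 1.98, 1.84 and 1.63 in the dopamine libraries, against 1.67, 1.31 and 1.37 in the PBS libraries, which overlapped. H2-Eb1 in relation to H2-Aa was 1.41, 1.51 and 1.13 with dopamine, against 1.04, 0.84 and 0.96 with PBS. H2-Ab1 in relation to H2-Aa was 1.76, 1.56 and 1.48 with dopamine, against 1.33, 1.04 and 1.43 with PBS, and H2-DMa in relation to H2-DMb1 was 2.48, 4.92 and 5.32 with dopamine, against 5.87, 9.92 and 9.50 with PBS. No scaling of a whole library can move such ratios. Of these 4 ratios, 3 did not overlap between the groups, and none was tested; over all pairs of tested genes with TPM above 0 in every library, 25.9% of ratios did not overlap.

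H2-DMa and H2-DMb1 form the exchange chaperone together. H2-DMa had 51.3, 66.5 and 76.4 TPM with dopamine, against 76.7, 52.2 and 92.5 TPM with PBS, and the groups overlapped (-0.17 ± 0.31, log2, SE; limma adjusted p = 0.753; -0.66 relative to all genes). H2-DMb1, the beta subunit, had 20.7, 13.5 and 14.4 TPM with dopamine, against 13.1, 5.26 and 9.74 TPM with PBS. The dopamine libraries of H2-DMb1 were all higher, and the difference was 0.79 ± 0.47 (log2, SE; limma adjusted p = 0.311). Ciita, the transactivator, had 1.39, 0 and 1.47 TPM with dopamine, against 0.81, 0.30 and 0.94 TPM with PBS. Only 2 of the 6 libraries reached 1 TPM, so Ciita was not tested.

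Of the members, 0 of the 6 tested passed in either direction, where 0.0356% of all tested genes passed as higher with dopamine and 0% as lower, and no member passed under any scaling, filter, pseudocount, replicate block or left-out library, although the count over all genes was 1536 without PBS library 1 and 4 with it. Of the 6, 3 were higher in every dopamine library and 0 lower, against 23.5% and 6.57% of all tested genes. The median difference of the 6 was 0.55 (log2), against 0.49 over all genes. Their summed TPM with Ciita was 1441, 1198 and 2220 in the dopamine libraries, against 1023, 936 and 1387 in the PBS libraries. The groups overlapped and an exact two-sided permutation test of the log2 sums (difference 0.51, -0.04 with median-of-ratios scaling) gave p = 0.2, where 3 against 3 libraries allow no p under 0.1.

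Transcripts of other cells that carry class II were present in the same libraries. In bulk libraries, fewer cells of a type and less RNA per cell cannot be told apart. The 14 B cell markers summed, without Igkc, to 134, 363 and 269 TPM with dopamine, against 58.5, 71.6 and 178 TPM with PBS, with none of the 14 at 0 throughout. Igkc, an antibody light chain, ranged from 14.6 to 1498 TPM with dopamine, against 22.9 to 4860 TPM with PBS. The 18 macrophage and monocyte markers summed to 682, 1414 and 426 TPM with dopamine, against 1660, 201 and 611 TPM with PBS, with 3 at 0 throughout. The 12 dendritic cell markers summed to 218, 141 and 121 TPM with dopamine, against 209, 223 and 131 TPM with PBS, with 3 at 0 throughout. None of these 3 sums separated the groups. The 12 T cell markers summed to 1830, 2425 and 2316 TPM with dopamine, against 1239, 1410 and 1809 TPM with PBS, and did. Cd3e, a defining T cell gene, had 44.8, 170 and 105 TPM with dopamine, against 4.33, 6.68 and 43.6 TPM with PBS. Cd3e, named after its values were seen, did not overlap between the groups and did not pass the test. The part of these other transcripts in the class II values was not tested.

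Other genes of the pathway, from lists, gave no passing gene in bulk either. Among the remaining class II and chaperone genes, 3 of 5 were tested, 0 passed and their median difference was -0.25 (log2), against 0.49 over all genes. H2-Oa, the alpha chain of the H2-DM inhibitor, had 62.7, 48.2 and 124 TPM with dopamine, against 83.0, 79.6 and 97.1 TPM with PBS, and overlapped. H2-Ob, its partner, had 15.8, 11.2 and 14.1 TPM with dopamine, against 6.58, 6.26 and 7.73 TPM with PBS, with no overlap (0.90 ± 0.43, log2, SE; limma adjusted p = 0.232). It was named after its values were seen. The 9 tested genes of class II transcription (RFX, NF-Y, CREB and IRF factors) had a median of 0.25 (log2), and 4 were higher in every dopamine library and 0 lower, against 23.5% and 6.57% of all tested genes. Irf1, an interferon-induced factor that acts on the Ciita gene, had 145, 193 and 163 TPM with dopamine, against 56.6, 44.2 and 99.4 TPM with PBS (1.38 ± 0.32, log2, SE; limma adjusted p = 0.0832). The interferon gamma response list stood above the shift of all genes, with a median of 1.23 (log2) over 16 tested genes, of which 8 were higher in every dopamine library (23.5% of all genes), 0 lower (6.57% of all genes) and 0 passed. Ifngr1, the interferon gamma receptor chain that binds the cytokine, had 652, 797 and 677 TPM with dopamine, against 246, 123 and 340 TPM with PBS (1.69 ± 0.32, log2, SE; limma adjusted p = 0.0832). Lysosomal proteases and turnover genes had a median of -0.11 (log2) over 9 tested genes, class I presentation genes 0.36 over 20 and co-stimulatory genes 0.51 over 8, with 0 passing in each.

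In the droplet data the members were rare transcripts. They summed to 2072 UMIs over 9076 cells, and Cd74 gave 55.1% of these. Cd74 was seen in 620 cells, H2-DMa in 299, H2-Ab1 in 196, H2-Eb1 in 125, H2-Aa in 124, Ciita in 29 and H2-DMb1 in 28. The same genes ranked differently in the 2 kinds of data. Among 14956 genes in both tables, H2-Aa stood at percentile 96.8 of bulk TPM and at percentile 37.7 of droplet UMIs. H2-Ab1 stood at 97.7 in bulk and 42.3 in droplets, H2-Eb1 at 97.1 and 38.3, and Cd74 at 98.2 and 70.6. H2-DMa stood at 90.4 in bulk and 48.1 in droplets, H2-DMb1 at 66.3 and 22.6, and Ciita at 26.4 and 23.2. H2-Oa, by contrast, was high in both, at 91.8 in bulk and 88.4 in droplets, as was Gata3 at 97.9 and 99.0. Cd3d (89.5 in bulk, 37.0 in droplets) and Cd3e (89.3 and 42.9) moved down as the class II chains did. Percentiles of TPM are per transcript length and those of UMIs per molecule, and sex, library type and cell filter differ between the data, so what lies behind the gap cannot be told apart here.

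**Figure D2:**
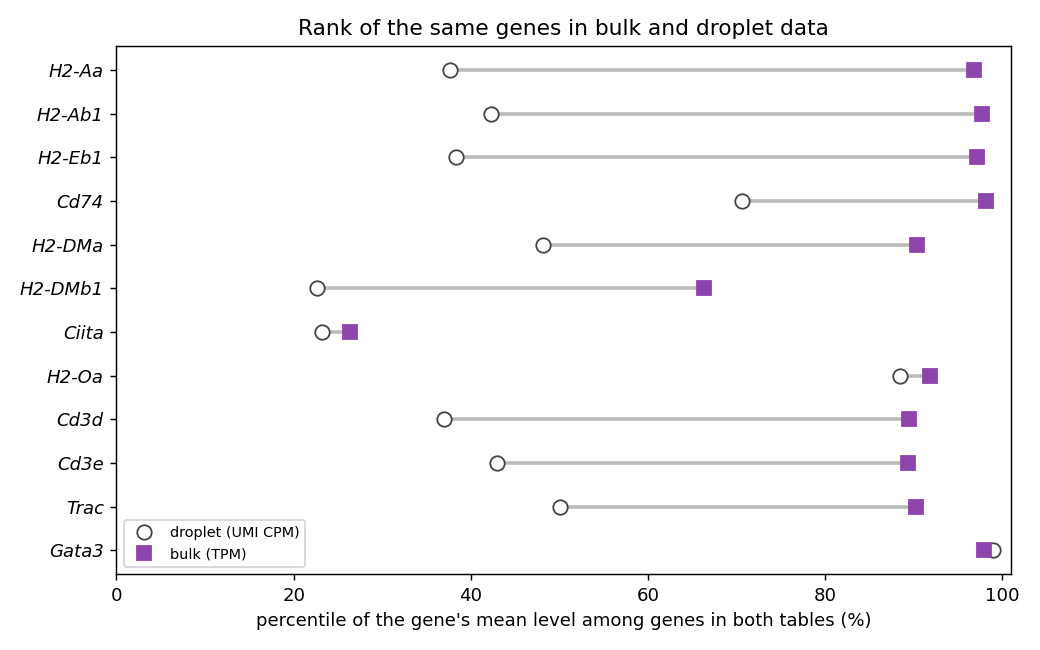
Percentile (linear axis, %) of each gene's mean level among the 14956 genes in both tables, with squares for bulk TPM and open circles for droplet UMI CPM. The 3 class II chains lie at 96.8 to 97.7 in bulk and at 37.7 to 42.3 in droplets, while H2-Oa and Gata3 are high in both.

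With IL-33 against PBS, Cd74 rose by 0.97 ± 0.20 (log2, SE; edgeR quasi-likelihood adjusted p = 0.0447), and it was the 1 member of 5 tested that passed. H2-DMa and H2-Eb1 were higher in every IL-33 hashtag and did not pass, and H2-Aa and H2-Ab1 overlapped. Levels are a gene's UMIs scaled to a hashtag total of 1000000 (CPM). Over all genes, 0.352% passed as higher with IL-33 and 0.352% as lower, and 20.9% were higher in every IL-33 hashtag and 13.6% lower, against 3 and 0 of the 5 members.

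Cd74 had 25.0, 21.96 and 29.3 CPM in IL-33 hashtags 3, 4 and 5, against 12.2 and 13.1 CPM in PBS hashtags 1 and 2. The lowest IL-33 hashtag was well above the higher PBS hashtag. The call rests on few PBS cells and sits near its threshold: the change was 0.94 (adjusted p = 0.302) without PBS hashtag 1, 1.04 (0.271) without PBS hashtag 2, 0.99 (0.075) without IL-33 hashtag 3 and 0.85 (0.0626) without IL-33 hashtag 5. With all 8 hashtags in 1 fit it was 0.97 (adjusted p = 0.332), where 0 of all genes passed. With cells between the 10th and 90th percentile of UMIs it was 0.44 (0.525), without cells holding 2 or more markers of another cell type 0.94 (0.053), and without cells holding a rare marker of another cell type 0.94 (0.068). Cd74 was higher with IL-33 in all of these.

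H2-DMa, the DM alpha chain, had 7.88, 5.15 and 7.44 CPM in IL-33 hashtags, against 4.29 and 2.98 CPM in PBS hashtags (1.00 ± 0.37, log2, SE; edgeR adjusted p = 0.242). H2-Eb1 had 3.45, 4.80 and 3.02 CPM with IL-33, against 1.43 and 2.08 CPM with PBS (0.92 ± 0.48, log2, SE; edgeR adjusted p = 0.429). For both genes every IL-33 hashtag was higher, on 16 and 9 UMIs in the PBS hashtags together. H2-Aa had 2.91, 3.60 and 3.02 CPM with IL-33, against 1.43 and 2.98 CPM with PBS (0.30 ± 0.44, log2, SE; edgeR adjusted p = 0.845). H2-Ab1 had 4.42, 4.98 and 4.88 CPM with IL-33, against 2.15 and 5.66 CPM with PBS (0.03 ± 0.36, log2, SE; edgeR adjusted p = 0.988). The partners of I-A thus did not separate the groups, and PBS hashtag 2 held the highest H2-Ab1 level of the 5 hashtags.

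H2-DMb1 and Ciita were below the level that edgeR's filter keeps and were not tested. H2-DMb1 had 9, 5 and 7 UMIs in IL-33 hashtags and 0 UMIs in both PBS hashtags, where 0 of 1059 cells allows a share of cells with a UMI of up to 0.283% and a level of up to 0.631 CPM, counting error only. IL-33 hashtags had 0.971, 0.858 and 0.814 CPM of H2-DMb1. Ciita had 0.863, 0.343 and 0.814 CPM with IL-33, against 0.716 and 0.893 CPM with PBS, on 17 UMIs with IL-33 and 4 with PBS.

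**Figure D3:**
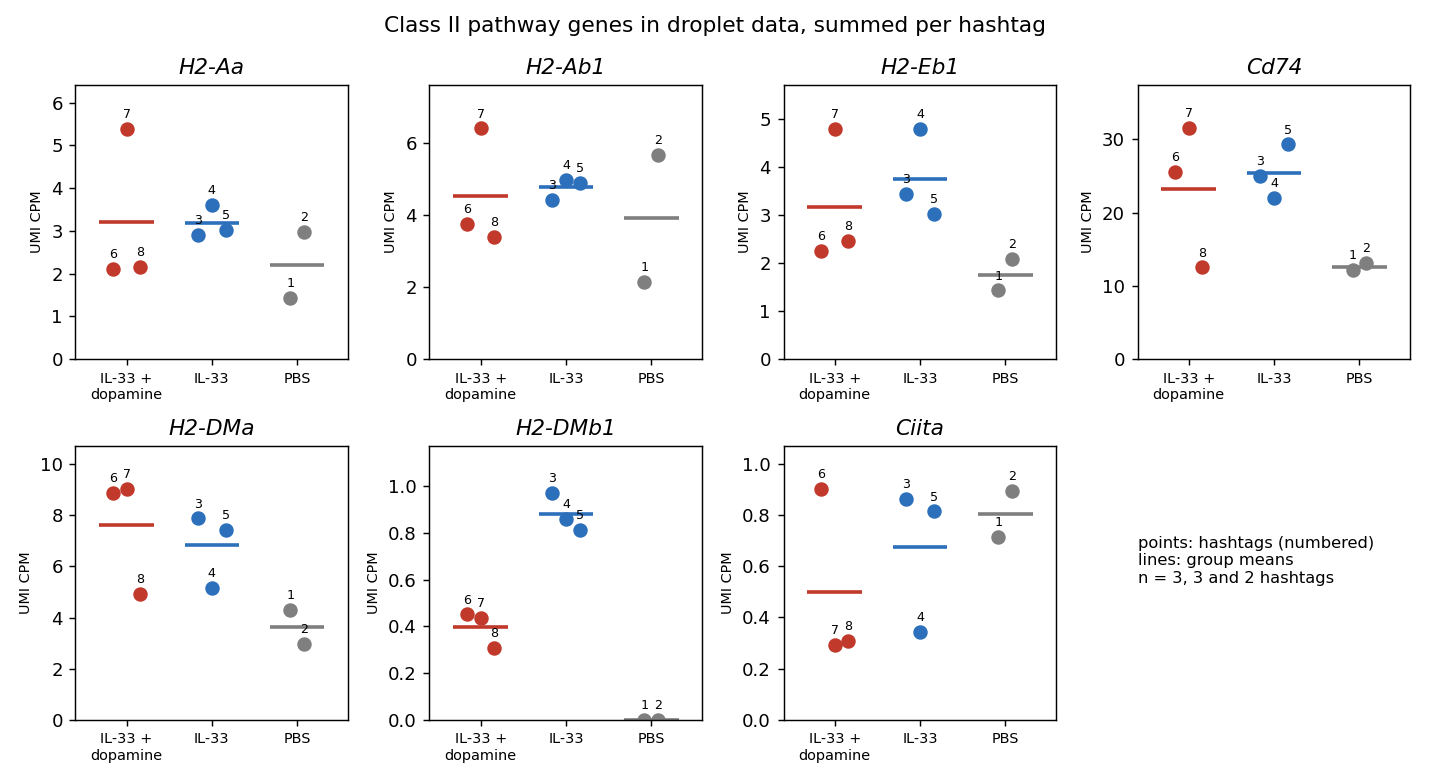
UMI CPM (linear axis from 0) of the 7 genes summed over each hashtag's cells, with numbered points for hashtags and lines for group means, for IL-33 plus dopamine (left), IL-33 (middle) and PBS (right). All 3 IL-33 hashtags of Cd74 lie at 21.96 CPM or more and both PBS hashtags at 13.1 CPM or less, and hashtag 8 of the dopamine group lies with the PBS hashtags.

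With dopamine added to IL-33, 0 of the 5 tested members passed against IL-33, where 0% of all genes passed as higher and 0.0284% as lower. None of the 5 separated the groups, against 7.81% of all genes higher in every dopamine hashtag and 6.93% lower. Cd74 had 25.5, 31.6 and 12.5 CPM in IL-33 plus dopamine hashtags 6, 7 and 8, against 25.0, 21.96 and 29.3 CPM in IL-33 hashtags 3, 4 and 5. Hashtag 7 was the highest of the 6 and hashtag 8 the lowest. The change of Cd74 was -0.14 ± 0.23 (log2, SE; edgeR adjusted p = 0.876), and 0.13 without hashtag 8. H2-DMa had 8.86, 9.02 and 4.94 CPM with dopamine, against 7.88, 5.15 and 7.44 CPM with IL-33 (0.13 ± 0.23, log2, SE; edgeR adjusted p = 0.888). H2-Eb1 had 2.25, 4.80 and 2.47 CPM with dopamine, against 3.45, 4.80 and 3.02 CPM with IL-33 (-0.20 ± 0.32, log2, SE; edgeR adjusted p = 0.870). For both, the dopamine hashtags spanned the IL-33 hashtags or overlapped them. H2-Aa differed by 0.04 ± 0.35 and H2-Ab1 by -0.06 ± 0.25 (log2, SE; edgeR adjusted p = 0.977 and 0.955). Both changed sign under some settings, given at the end. In the untested pair, H2-DMb1 had 0.450, 0.436 and 0.309 CPM with dopamine, on 3, 3 and 2 UMIs, against 0.971, 0.858 and 0.814 CPM with IL-33. All 3 dopamine hashtags of H2-DMb1 were lower, on 8 UMIs in all. Ciita had 0.901, 0.291 and 0.309 CPM with dopamine, against 0.863, 0.343 and 0.814 CPM with IL-33.

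IL-33 plus dopamine was also set against PBS, with the same 2 PBS hashtags. No member passed, and of all 10612 genes 0% passed in either direction by edgeR, 0 by DESeq2 and 545 at an unadjusted p under 0.05. Of the 5 members, 2 were higher in every dopamine hashtag (H2-DMa and H2-Eb1) and 0 lower, against 14.9% and 9.09% of all genes. Cd74 differed by 0.82 ± 0.37, H2-DMa by 1.12 ± 0.40 and H2-Eb1 by 0.72 ± 0.57 (log2, SE; edgeR adjusted p = 0.927, 0.927 and 0.928). For Cd74, hashtag 8 with 12.5 CPM lay between the PBS hashtags.

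The share of cells with a UMI of H2-Aa, H2-Ab1, H2-Eb1 or Cd74 was 9.90%, 12.5% and 7.32% in IL-33 plus dopamine hashtags 6, 7 and 8, 11.9%, 10.5% and 11.1% in IL-33 hashtags 3, 4 and 5, and 5.79% and 8.16% in PBS hashtags 1 and 2. The exact 95% binomial (Clopper-Pearson) intervals ran from 10.3% to 13.7% for hashtag 3 and from 3.47% to 8.99% for hashtag 1, counting error only. The mean of IL-33 hashtags was 4.21 percentage points above that of PBS hashtags (exact two-sided permutation p = 0.1, the smallest that 3 against 2 hashtags allow; 0.3 adjusted over 3 comparisons). The mean with dopamine was 1.29 points below that with IL-33 (p = 0.5, adjusted 0.5) and 2.92 points above that with PBS (p = 0.3, adjusted 0.45), by the same exact permutation test. Cells of PBS hashtags were shallower, with medians of 4330 and 4318 UMIs, against 4860 to 5692 UMIs in IL-33 hashtags and 4201 to 5231 UMIs with dopamine. With each cell thinned to 2000 UMIs, which left out 4 cells, the mean shares were 4.58% with dopamine, 4.84% with IL-33 and 3.52% with PBS. The pool held no cell type that should lack these genes, so transcripts foreign to ILC2s served for comparison. Lyz2, a macrophage gene, was seen in 0.251% of dopamine, 0.260% of IL-33 and 0.228% of PBS cells on average, and Sftpc, an alveolar epithelial gene, in 0.312%, 0.407% and 0.696%. By hashtag Lyz2 was seen in 0.0799% to 0.396% of cells and Sftpc in 0.0916% to 1.07%. H2-DMb1 and Ciita, at 0.136% to 0.606% of cells where seen, lay within the range of these 2 rare foreign genes over all hashtags. So did H2-Aa in dopamine hashtags 6 (1.04%) and 8 (0.881%) and PBS hashtags 1 (0.643%) and 2 (1.07%). H2-Eb1 did in PBS hashtags 1 (0.643%) and 2 (0.802%), and H2-Ab1 in PBS hashtag 1 (0.965%). The top of that range was Sftpc in PBS hashtag 2, with 1.07% as for H2-Aa there. In hashtag 6, H2-Aa was above Sftpc (0.160%) and Lyz2 (0.0799%). Whether any of these shares is background was not tested. Cd74 was above the range of Lyz2 and Sftpc in every hashtag, at 4.14% to 8.52% of cells, and so was H2-DMa, at 1.34% to 4.43%. Scgb1a1, a club cell secretory gene left out of that range, was far more widespread. It was seen in 32.2% of dopamine, 33.5% of IL-33 and 30.2% of PBS cells. Cd74 and H2-DMa were rarer than Scgb1a1 in every hashtag, so their standing depends on the foreign gene chosen.

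The members were not spread evenly over the authors' 6 cell clusters. Clusters were made from the same counts, so levels by cluster are a description. Cluster 5 (913 cells) was the highest for Cd74, at 58.5 CPM, against 9.72 to 26.6 CPM in clusters 0 to 4. H2-Eb1 had 9.03 CPM in cluster 5, against 1.71 to 2.41 CPM in the others, and H2-Aa had 6.58 CPM, against 1.76 to 3.23 CPM. H2-Ab1 had 7.87 CPM in cluster 5 and 6.26 CPM in cluster 1, against 2.69 to 4.25 CPM elsewhere. H2-DMa had 11.4 CPM in cluster 5, against 3.62 to 8.73 CPM in the others. For Cd74 the order of clusters was 5, 1, 3, 4, 2 and 0, with 26.6, 21.8, 14.2, 11.4 and 9.72 CPM after cluster 5. Over the hashtags the levels of clusters 1 and 3 overlapped (8.43 to 32.9 and 9.62 to 34.4 CPM), as did those of clusters 0, 2 and 4, while cluster 5 ran from 33.7 to 87.9 CPM, its lowest hashtag just under the highest of cluster 3. In 7 hashtags cluster 5 held at least 20 cells, and it was the highest cluster for Cd74 in 7 of them, for H2-Eb1 in 6, for H2-Aa in 5, for H2-Ab1 in 4 and for H2-DMa in 2. Some of these ranks rest on few UMIs in cluster 5. H2-Eb1 had 1 UMI there in hashtag 8 and 2 in hashtag 2, H2-Aa 2 in hashtag 2 and H2-Ab1 3 in hashtag 8. Hashtag 7 gave 20 of the 51 H2-Aa UMIs and 27 of the 70 H2-Eb1 UMIs of cluster 5.

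**Figure D4:**
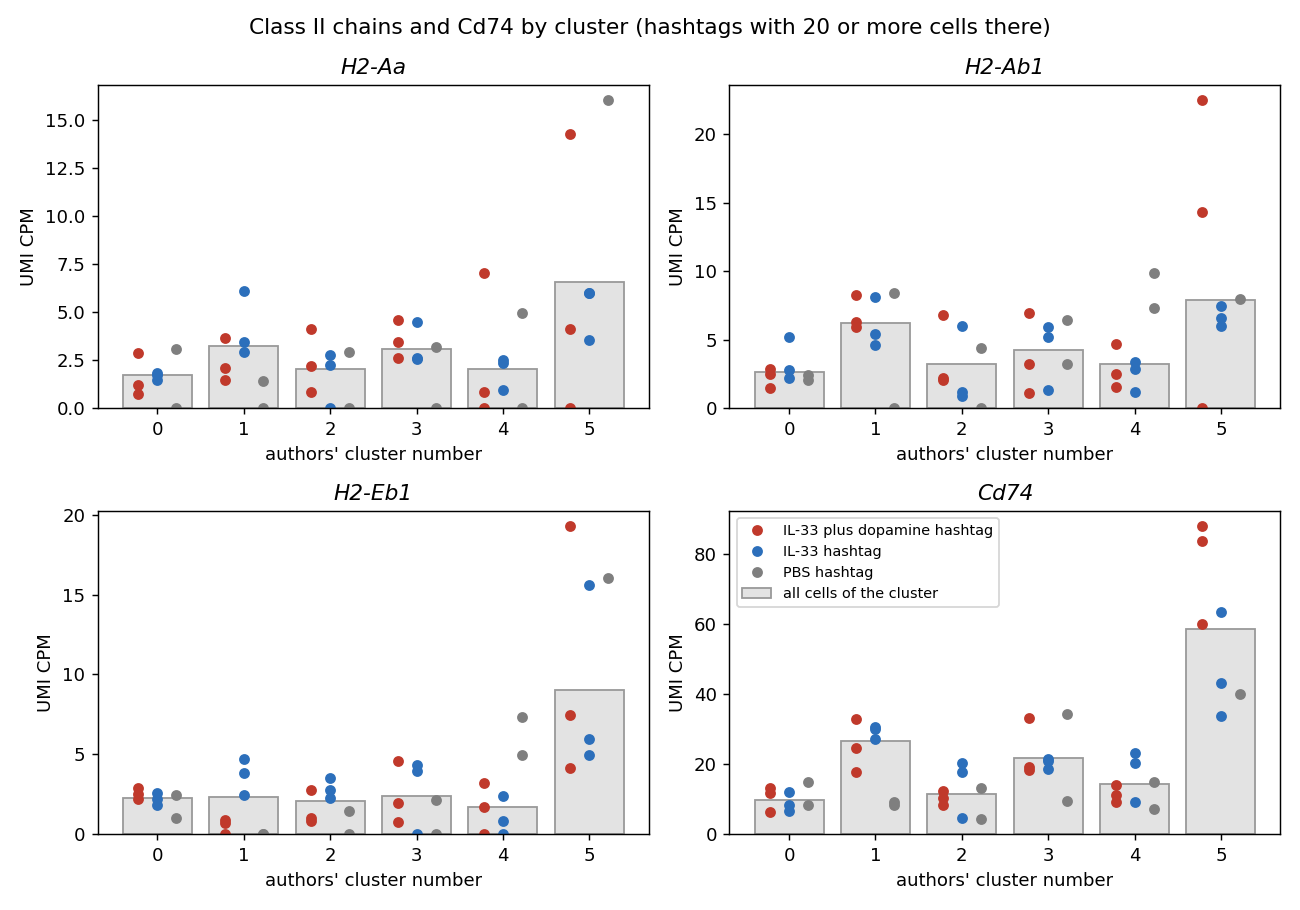
UMI CPM (linear axis from 0) of H2-Aa, H2-Ab1, H2-Eb1 and Cd74 in each of the authors' clusters 0 to 5, with grey bars for all cells of a cluster and points for hashtags with at least 20 cells there (red IL-33 plus dopamine, blue IL-33, grey PBS). Cluster 5 has the tallest bar for all 4 genes, and its hashtag points for Cd74 lie between 33.7 and 87.9 CPM.

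Cluster 5 cells were also the deepest, with a median of 8142 UMIs against 4082 to 5480 UMIs in the others. Cd74 was seen in 18.7% of cluster 5 cells, against 3.15% to 8.07% elsewhere, and with cells thinned to 2000 UMIs in 7.18%, against 1.67% to 3.74%. Scgb1a1 ran the other way, with 58.8 CPM in cluster 5, against 72.2 to 98.7 CPM in the other clusters. Cluster 5 held 39.7% of Cd74 UMIs and 44.0% of H2-Eb1 UMIs, with 10.1% of all cells.

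The hashtags differed in how many of their cells were in cluster 5: 6.71%, 14.2% and 1.76% with IL-33 plus dopamine, 22.02%, 8.88% and 11.7% with IL-33, and 2.57% and 3.08% with PBS. Clusters and members rest on the same counts, so these shares were not tested. Without cluster 5, Cd74 had 18.4, 17.2 and 11.5 CPM with dopamine, 17.2, 20.01 and 21.1 CPM with IL-33, and 11.9 and 12.1 CPM with PBS. The IL-33 hashtags were still all above the PBS hashtags. The change with IL-33 against PBS was then 0.65 (log2; edgeR adjusted p = 0.218), against 0.97 over all cells, and the call was lost; this setting was added after the data were seen. Hashtag 8, the lowest for Cd74 among IL-33-treated hashtags over all cells, was also the lowest without cluster 5.

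**Figure D5:**
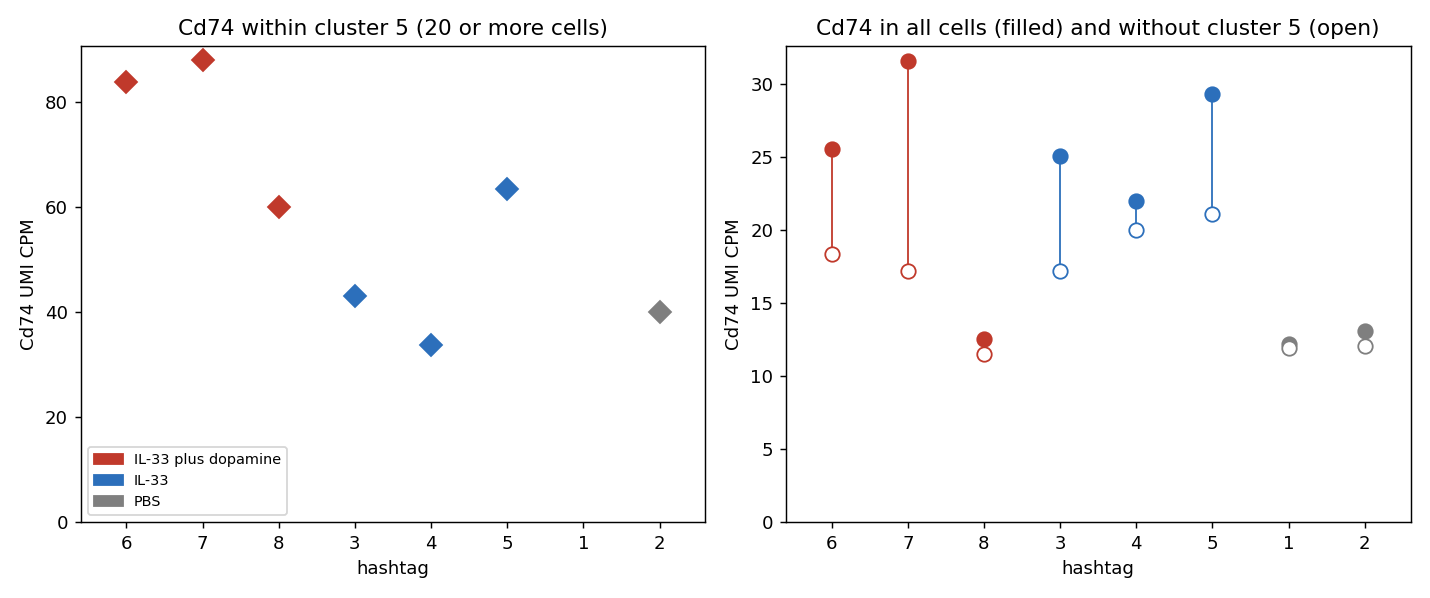
Cd74 UMI CPM (linear axes from 0) by hashtag, for the 7 hashtags with at least 20 cells in cluster 5 (left panel, diamonds) and for all cells against all cells outside cluster 5 (right panel, filled and open circles), with red for IL-33 plus dopamine, blue for IL-33 and grey for PBS. Without cluster 5 the IL-33 hashtags lie at 17.2 to 21.1 CPM and the PBS hashtags at 11.9 and 12.1 CPM.

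Within clusters the same test was run on UMIs summed per hashtag. In cluster 1, Cd74 averaged 29.2 ± 1.84 CPM with IL-33 (SD, n = 3 hashtags) and 8.74 ± 0.44 CPM with PBS (SD, n = 2). The change was 1.77 ± 0.48 (log2, SE; edgeR adjusted p = 0.0967) and rested on 7 PBS UMIs. In clusters 0, 2, 3 and 4 the change of Cd74 was -0.21, 0.92, -0.23 and 0.38 (log2; edgeR adjusted p from 0.926 to 0.976), and cluster 5 had too few PBS cells, 8 in hashtag 1, for a test. These tests of IL-33 against PBS within clusters were added after the data were seen. With dopamine against IL-33 in cluster 5, Cd74 had 83.8, 87.9 and 59.9 CPM, against 43.1, 33.7 and 63.4 CPM. The dopamine hashtags averaged 77.2 ± 15.1 CPM and the IL-33 hashtags 46.7 ± 15.2 CPM (SD, n = 3 each), and the groups overlapped through hashtags 8 and 5. The change was 0.76 ± 0.20 (log2, SE; edgeR adjusted p = 0.121), where 0.266% of the 7156 genes tested in cluster 5 passed. H2-DMa in cluster 1 had 14.6, 11.2 and 8.87 CPM with dopamine, against 5.50, 2.71 and 5.89 CPM with IL-33, without overlap (1.25 ± 0.38, log2, SE; edgeR adjusted p = 0.580). The share of all genes without overlap was not computed within clusters. H2-DMa went the other way in cluster 4 (-0.84, log2; edgeR adjusted p = 0.806) and the same way in cluster 5 (0.75, adjusted p = 0.620). No member passed in any cluster, and in clusters 0 to 4 Cd74 changed by -0.69 to 0.18 (log2) with dopamine against IL-33, with adjusted p from 0.805 to 0.975.

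Single cells held few of the genes at a time. Of 9076 cells, 7894 held no UMI of a member, 1019 held 1 member, 115 held 2, 29 held 3 and 19 held 4 or more. The 48 cells with 3 or more held 21.5% of all member UMIs, 28 of them were in cluster 5, and their median depth was 8362 UMIs against 4810 over all cells. Of these 48 cells, 45 held a UMI of Gata3 and 47 of Il1rl1, the ILC2 genes. Of the same cells, 4 held a UMI of a rare marker of B cells, dendritic cells, macrophages or epithelium (a marker seen in under 1% of cells), which is 8.33%, against 4.83% of all cells. All 4 were among the 19 cells with 4 or more members (21.1%, median depth 8326 UMIs), and 0 among the 29 with 3 members (median depth 9237 UMIs). Of 31 markers of these 4 cell types in the table, 13 were seen in the 48 cells. Napsa, a protease of alveolar epithelium, was in 20.8% of them (2.29% of all cells), Zbtb46, a dendritic cell factor, in 14.6% (4.71%), Batf3, another, in 4.17% (0.309%), and Xcr1, Cd68 and Sftpa1 in 2.08% each (0.298%, 0.430% and 0.0771%). Cd79b, Ighm, Bst2, Fcer1g and Tyrobp were also seen more often there than in all cells. Scgb1a1 was in 37.5% of the 48 cells (32.57% of all cells). Epcam, another epithelial marker, went the other way, at 8.33% (12.04% of all cells). Lyz2, Igkc, Blk, Itgax, Siglech, Sftpc, Sftpb, Krt18 and Ager were among the 18 markers at 0 there. The part of other cells in these counts was not tested. Among cells with 10 or more member UMIs (18 cells, at most 37 UMIs in 1 cell), 1, 5 and 0 were in IL-33 plus dopamine hashtags 6, 7 and 8, 4, 2 and 6 in IL-33 hashtags 3, 4 and 5, and 0 in both PBS hashtags. Of these 18 cells, 2 held a rare marker of another cell type (11.1%, against 4.83% of all cells). Doublets were not called here.

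Cells with a UMI of 1 member held another member more often than the remaining cells did. Of the 125 cells with H2-Eb1, 36.0% held Cd74, against 6.42% of the cells without H2-Eb1. Of the 124 cells with H2-Aa, 16.1% held H2-Ab1, its partner, against 1.97% of the cells without H2-Aa. Of the 196 cells with H2-Ab1, 27.6% held Cd74, against 6.37% without. Of the 299 cells with H2-DMa, 20.1% held Cd74, against 6.38% without, and of the 28 with H2-DMb1, 12 did. Of the 29 cells with Ciita, 7 held Cd74 and 1 held H2-Aa. Cells with H2-Eb1 were deeper, with a median of 5885 UMIs against 4796 without, and no test was made over cells.

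Among the other genes of the pathway in droplets, H2-Oa was the abundant one, with 81.2, 57.6 and 59.0 CPM with dopamine, 71.4, 71.0 and 91.2 CPM with IL-33, and 70.1 and 67.6 CPM with PBS. It did not pass in any comparison (edgeR adjusted p = 0.567 with dopamine against IL-33 and 0.684 with IL-33 against PBS). By cluster H2-Oa ran from 58.1 to 84.5 CPM, a narrower span than that of Cd74. With IL-33 against PBS, the 9 tested genes of class II transcription had a median of -0.11 (log2), the 9 lysosomal genes -0.04, the 15 interferon gamma response genes 0.04 and the 20 class I genes 0.03, with 0 passing in each, against 0.92 over the 5 members and 0.00 over all genes. The 7 tested co-stimulatory genes had a median of 0.42 (log2), and 5 of them were above 0. Of the 7, 4 were higher in every IL-33 hashtag and 1 lower, against 20.9% and 13.6% of all genes. Icos, a co-stimulatory receptor, fell to 255, 285 and 276 CPM with IL-33, against 527 and 383 CPM with PBS (-0.76 ± 0.11, log2, SE; edgeR adjusted p = 0.00684), and was the 1 gene of 7 tested co-stimulatory genes that passed, where 0.352% of all genes passed as lower. The call was lost with all 8 hashtags in 1 fit (-0.77, adjusted p = 0.194) and without PBS hashtag 1, the higher of the PBS values (-0.52, adjusted p = 0.0897). With dopamine against IL-33 the 5 lists had medians between -0.03 and 0.22 (log2) and 0 passing genes. Ifngr1 had 248, 306 and 384 CPM with dopamine, against 296, 356 and 245 CPM with IL-33, and Irf1 had 36.9, 44.1 and 38.6 CPM, against 34.6, 41.5 and 35.5 CPM. Both overlapped between the groups in droplets.

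The genes whose level most resembled the summed members were named as a description. Over the 8 hashtags, among 2492 genes of at least 50 CPM, they were Ptgs2 (Pearson r = 0.972), Atox1 (0.969), Commd7 (0.968), Uqcrfs1 (0.964) and Arpc5 (0.963). Over the 6 bulk libraries, among 5988 genes of at least 10 TPM, they were Ccm2 (0.995), Eya2 (0.978), Iqgap2 (0.977), Rxylt1 (0.971) and Ip6k2 (0.970). No gene was in both lists. The points share library, depth and treatment, and the highest r of so many genes is high by selection.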

How the data were processed

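Lung ILC2s were measured in 6 bulk Smart-Seq2 libraries and 1 hashtagged droplet pool. Per the submitters' processing notes, cutadapt 2.10, STAR 2.7.5c, RSEM 1.3.3, Cell Ranger 6.1.1, Seurat 4.0.2 and build mm10 were used, without settings. Bulk values were deposited as TPM, scaled by the authors, so depth is unknown. Droplet values were deposited as UMI counts per cell, with the authors' hashtag, treatment and cluster number, and the percent of mitochondrial UMIs deposited in the cell table was not used in a test. The sources used here do not say how doublets were treated, and none were called.

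The bulk test was limma 3.58.1 with trend, on log2(TPM + 1) (TPM of at least 1 in at least 3 libraries), so fold changes of low genes are understated. For droplets, UMI counts were summed per hashtag and compared by the quasi-likelihood test of edgeR 4.0.16, with filterByExpr and TMM, in R 4.3.3. Both used Benjamini-Hochberg adjustment over all tested genes, two-sided, with a gene passing at an adjusted p under 0.05. DESeq2 1.42.0, other scalings, filters and cell sets, and left-out libraries were alternatives. Fold changes are dopamine over its control, or IL-33 over PBS. Replicate numbers of bulk libraries are not said to pair them, so the test had no replicate block; a fit with one was an alternative. Scripts were tested on simulated counts. Each hashtag counted as 1 replicate. The members, lists and tests were chosen with earlier results of these data known. Named were all 7 members and, of each other list, passing genes (up to 4) and those of highest mean level (up to 2), with exceptions stated.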

Additional observations from a re-analysis of the deposited data

How the results depend on the processing

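Values are log2 differences or numbers of passing genes. In bulk, 4 genes passed; the number was 2 with a pseudocount of 5, 0 without a filter, 2 with a mean TPM of at least 5, 21 with quantile normalization and 0 to 1536 with 1 library left out. With the replicate number as a block it was 15; equally numbered libraries did not deviate together (correlations 0.0186, -0.0710 and -0.00177), so the numbers are not read as pairs. With median-of-ratios scaling H2-Aa was -0.414, H2-Ab1 -0.0677 and the summed members -0.0366. With 1 library left out H2-Aa ranged from -0.220 to 0.358 and H2-DMa from -0.394 to 0.0139.

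With dopamine against IL-33 in droplets, 3 genes passed, 26 with DESeq2, 9 with cells between the 10th and 90th percentile of UMIs and 1 to 16 with 1 hashtag left out. H2-Aa was -0.123 and H2-DMa -0.0841 with those percentiles. Without cells of 2 or more foreign markers H2-Aa was -0.296 and H2-Ab1 0.0661, without rare-marker cells H2-Aa was -0.125, and without cluster 5 it was -0.167. With 1 hashtag left out H2-Aa ranged from -0.552 to 0.293, H2-Ab1 from -0.401 to 0.0821, H2-Eb1 from -0.630 to 0.0134, Cd74 from -0.429 to 0.135 and H2-DMa from -0.00938 to 0.336, and the difference in the share of cells from -2.56 to 0.000333 percentage points.

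With IL-33 against PBS, 74 genes passed, 119 with DESeq2, 322 without a filter, 0 with all 8 hashtags in 1 fit, 34 with the percentiles and 5 to 124 with 1 hashtag left out. H2-Ab1 was -0.0240 with the percentiles, -0.177 without cluster 5 and -0.284 to 1.1 with 1 hashtag left out. With dopamine against PBS, 0 genes passed, and 0 to 2 with 1 hashtag left out. There H2-Aa was -0.0372 and H2-Ab1 0.0645 without cells of 2 or more foreign markers, and H2-Ab1 was 0.0411 with DESeq2 and 0.0909 without rare-marker cells. With 1 hashtag left out H2-Aa ranged from -0.251 to 1.13 and H2-Ab1 from -0.361 to 1.03. Where only 1 PBS hashtag was left, it was assumed to vary like the other group. None of these members passed in the comparison concerned. The cause of each change was not tested.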
